A study of Homo sapiens with 9 samples.

Results

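S100 proteins are small calcium sensors, and 8 of them, S100A2, S100A4, S100A6, S100A10, S100A11, S100A13, S100A14 and S100A16, were examined together with annexin A2 (ANXA2), the partner of S100A10, in cells given a copper chelator. The members were chosen by name: S100A13 binds copper and S100A4 marks metastatic breast cancer. Earlier results of these data were known when the choice was made. They made up 9 of the 59453 gene names in the count table, and each of the 9 passed the expression filter that left 16556 genes for testing. The RNA came from MDA-MB-231, an established human triple-negative breast cancer line, sequenced as 3 groups of 3 replicates. The groups were untreated cells, cells exposed to TEPA for 8 h, and cells exposed to TEPA for 24 h. TEPA is a polyamine copper chelator. Its concentration is 8 mM in the sample labels and 4 mM in the RNA sequencing methods, and the study expands the name to that of a pentamine while its list of reagents names the related tetramine, trientine, as the dihydrochloride. A single untreated group served both times, so the comparisons of 8 h and of 24 h with untreated cells share their control libraries. The labels give that group no time, so time in TEPA and time in culture cannot be told apart. Nothing in the sources used here says that replicates came from separate cultures, and p-values then measure only the spread between these libraries.

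S100 proteins carry EF-hand motifs, helix-loop-helix folds that bind calcium, and work mostly as dimers that open a binding surface for other proteins when calcium rises. Complexes of an S100A10 dimer with ANXA2 sit under the plasma membrane and on the cell surface, where they dock plasminogen and its activators, and S100A10 differs from its relatives in that it no longer needs calcium to bind its partner. S100A4 binds the heavy chain of nonmuscle myosin IIA and is known for promoting cell motility and metastasis. S100A13 takes part, with copper, in the release of FGF1 and interleukin 1 alpha from cells by a route that bypasses the Golgi.

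Libraries held 34633755 to 49342659 counts, of which the 9 genes together took 0.369 to 0.409% in untreated cells, 0.308 to 0.314% at 8 h and 0.365 to 0.383% at 24 h. Levels are given below as counts per 1000000 counts of the library (CPM), on library sizes scaled by TMM, and a gene was called changed at a Benjamini-Hochberg adjusted p under 0.05 over all 16556 genes in edgeR's quasi-likelihood test. Replicates differed by a chi-square per gene of 2.35 to 20.5, with the highest value between untreated replicates 1 and 2, so no library looked like a second copy of another. The line's markers VIM, CD44 and EGFR were expressed in every library at 332 CPM or more. Of the receptors that define a triple-negative tumor, PGR had 0 counts and ESR1 at most 9, while ERBB2 was at 51.9 to 87.1 CPM. The epithelial markers EPCAM and CDH1 had 36 to 71 and 10 to 144 counts. EPCAM was called at neither time, whereas CDH1 averaged 0.62 CPM in untreated cells, 0.35 at 8 h and 3.19 at 24 h. CDH1 was called higher at 24 h, by 2.33 on the log2 scale (adjusted p = 1.1e-06), and was not called at 8 h (0.054). Of 8 markers of leukocytes, endothelium and fibroblasts, CD3E had 0 counts in every library, and PTPRC, CDH5, COL1A2 and DCN had at most 6. The summed level of these 8 markers was 16.7 to 18.6 CPM in untreated cells, 33.2 to 33.9 at 8 h and 26.0 to 26.5 at 24 h. COL1A1, a collagen, made up most of it and was higher at both times, by 1.25 and 0.40 on the log2 scale, whereas the endothelial PECAM1 fell by 1.76 at 8 h and rose by 1.18 at 24 h. The part of these markers in the results below was not tested. In bulk RNA, fewer cells of a type and less RNA per cell cannot be told apart.

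The 8 S100 genes lie on chromosome 1 in a stretch of 1648446 bases (hg38), chr1:151982915-153631360, that also holds many genes of the skin barrier, and ANXA2 lies at chr15:60347134-60402883. Each of the 9 is transcribed from the minus strand. The starts of 4 genes are printed here, because these genes gave the main patterns below: S100A4 fell and then rose past its untreated level, S100A6 and S100A13 fell and came back, and S100A16 stayed low. The sequences are RefSeq's (GRCh38.p14), run 5′ to 3′ on the gene's strand from 250 bases before to 50 bases after the start of the canonical transcript, and capitals mark matches to the motifs named after them.
S100A4, chr1:153545757-153546056, minus strand: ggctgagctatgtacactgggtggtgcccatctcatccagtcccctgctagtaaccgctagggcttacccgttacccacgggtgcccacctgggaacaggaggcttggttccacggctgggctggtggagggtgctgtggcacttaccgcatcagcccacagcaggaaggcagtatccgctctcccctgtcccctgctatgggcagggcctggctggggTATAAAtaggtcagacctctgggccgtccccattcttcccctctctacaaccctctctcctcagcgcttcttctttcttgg
S100A6, chr1:153535942-153536241, minus strand: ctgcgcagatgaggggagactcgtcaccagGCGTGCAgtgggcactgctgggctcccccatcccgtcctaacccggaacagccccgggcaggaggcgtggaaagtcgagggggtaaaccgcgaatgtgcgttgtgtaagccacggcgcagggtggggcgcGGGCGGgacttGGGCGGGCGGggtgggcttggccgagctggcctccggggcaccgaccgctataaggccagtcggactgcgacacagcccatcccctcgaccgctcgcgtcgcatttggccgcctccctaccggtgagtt
S100A13, chr1:153627456-153627755, minus strand: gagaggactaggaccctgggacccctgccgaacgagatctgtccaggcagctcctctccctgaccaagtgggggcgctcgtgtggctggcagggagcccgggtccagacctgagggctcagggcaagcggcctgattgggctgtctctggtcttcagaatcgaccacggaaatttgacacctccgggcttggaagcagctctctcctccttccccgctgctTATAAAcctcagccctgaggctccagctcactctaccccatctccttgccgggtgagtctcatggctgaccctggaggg
S100A16, chr1:153613088-153613387, minus strand: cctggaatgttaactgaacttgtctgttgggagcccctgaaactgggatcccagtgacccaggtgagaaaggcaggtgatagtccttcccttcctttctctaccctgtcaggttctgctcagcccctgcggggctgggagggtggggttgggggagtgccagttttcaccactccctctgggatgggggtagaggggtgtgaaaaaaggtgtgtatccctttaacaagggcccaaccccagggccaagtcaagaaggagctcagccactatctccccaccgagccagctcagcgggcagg

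Such windows were found for each of the 9 genes, and 4 motifs were searched on both strands of all 35116 windows in the table. The core of the metal response element, the site of the zinc-sensing factor MTF1, was searched as TGCACNC or TGCGCNC, and 3 of the 9 windows held it (S100A2, S100A6 and S100A11) against 29.6% of all windows. The TATA box TATAAA was in 3 (S100A4, S100A13 and ANXA2) against 11.5% of windows, and the GC box GGGCGG in 4 (S100A6, S100A10, S100A11 and ANXA2) against 44.95%. The AP-1 site TGANTCA was in 2 (S100A2 and ANXA2) against 7.71%. In S100A6 the metal response element core reads GCGTGCA, its reverse strand, and 2 of its 3 GC boxes share bases, while no match of one motif overlapped a match of another in the 4 windows shown. S100A16 and S100A14 held none of these letters. A match here describes a sequence and not a bound site.

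After 8 h of TEPA, 8 of the 9 genes were lower than in untreated cells and 0 were higher, where 24.5% of all genes tested were called lower and 25.2% higher. S100A4 was the only gene of the 9 to pass both the adjusted p and a log2 fold change beyond 0.5, limits which 7.67% of all genes passed when lower and 10.1% when higher. In CPM, the libraries at 8 h lay wholly below the untreated ones for 8 genes and wholly above for 0, where 28.6% and 29.2% of all genes did so. The count of 0 higher genes was also 0 at an unadjusted p under 0.05 and in DESeq2. By 24 h the picture had split: S100A4 and S100A14 exceeded untreated cells, whereas the 3 genes S100A11, S100A16 and ANXA2 were lower, with 25.7% of all genes called higher and 26.8% lower. The 2 genes that were higher, and 0 of those that were lower, passed the limit of 0.5, as 10.2% and 8.46% of all genes did. The 24 h libraries lay wholly above the untreated ones for 2 genes and wholly below for 2, against 28.4% and 28.9% of all genes. Between the 2 times of treatment, 6 genes were higher at 24 h than at 8 h and 0 were lower, beside 26% and 28.8% of all genes, with S100A4 and S100A13 beyond 0.5 (10.4% of all genes higher, 10.8% lower). The libraries did not overlap for 7 genes, each of them higher at 24 h, where 29.6% of all genes were wholly higher and 32.4% wholly lower. The count of 0 lower genes was again 0 at an unadjusted p under 0.05 and in DESeq2. The median log2 fold change over the 9 genes was -0.24 at 8 h, -0.02 at 24 h and 0.23 for 24 h against 8 h, where the median over all genes was -0.0013, 0.0023 and -0.016. S100A14, with 4 to 29 counts per library, reached the filter's level of 0.25 CPM, before TMM scaling, in 1 untreated library, 2 libraries at 8 h and 3 at 24 h, so it was tested mainly through the group where it was high, and the counts and medians that include it are descriptions.

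**Figure D1:**
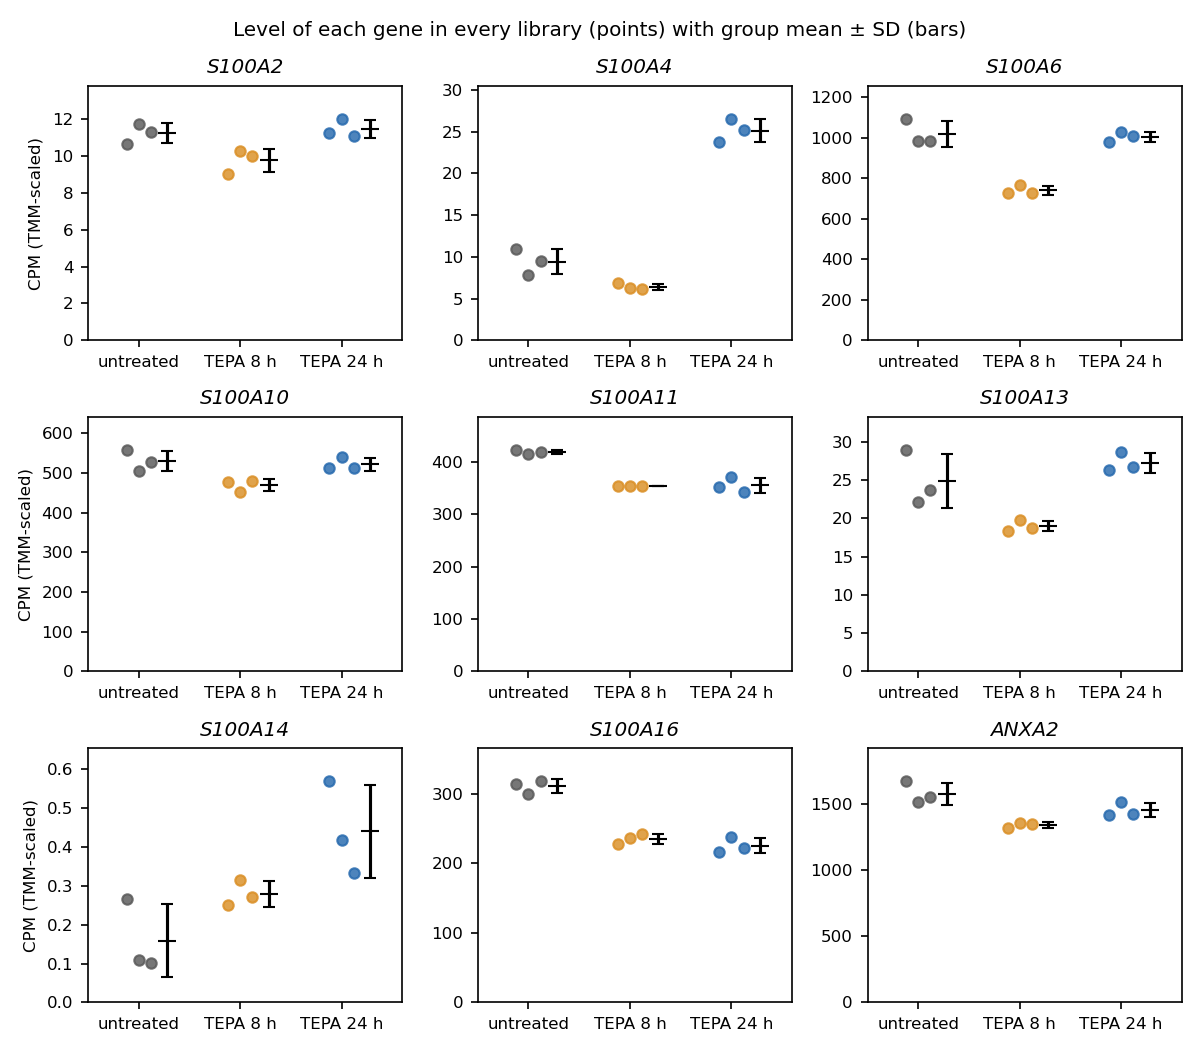
Level of each gene in CPM (vertical axes, each from 0, TMM-scaled) in the 3 untreated, 3 TEPA 8 h and 3 TEPA 24 h libraries (points), with the group mean ± SD (black bars). S100A4 rose from 9.42 CPM in untreated cells to 25.1 CPM at 24 h after a dip to 6.40 CPM at 8 h, and S100A16 stayed below its untreated libraries at both times.

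**Figure D2:**
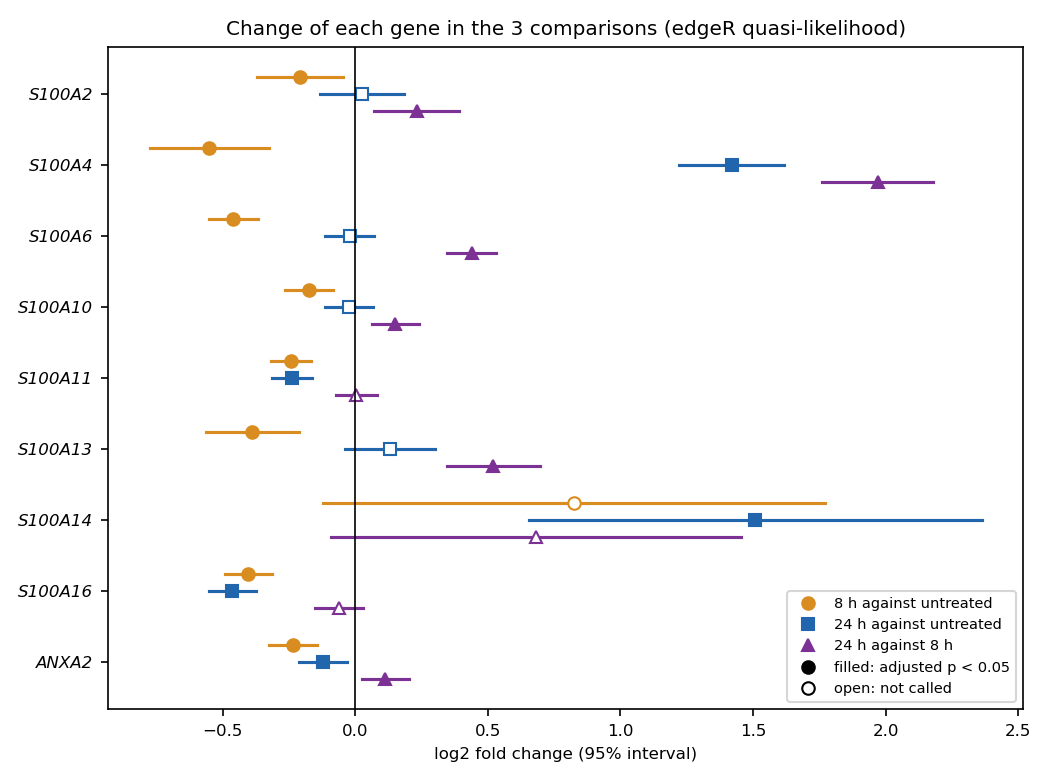
Log2 fold change (horizontal axis) of each gene with its 95% interval for 8 h against untreated (circles), 24 h against untreated (squares) and 24 h against 8 h (triangles), filled where called. The 8 h values lie left of 0 for all genes but S100A14, and S100A4 lies far to the right at 24 h, at 1.42 against untreated cells.

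S100A4, the metastasis-associated member (ENSG00000196154, chr1:153543613-153550136), changed the most of the well-counted genes and in opposite directions at the 2 times. Its level was 10.9, 7.88 and 9.46 CPM in untreated replicates 1 to 3. It was 6.82, 6.27 and 6.09 CPM at 8 h and 23.8, 26.5 and 25.1 CPM at 24 h, from 224 to 1211 counts per library. The 3 groups did not overlap: every library at 8 h lay below, and every library at 24 h above, the untreated ones. At 8 h S100A4 fell by 31.7%, which is -0.55 on the log2 scale (standard error 0.106, adjusted p = 4.7e-04). At 24 h it was 2.68-fold higher than in untreated cells (1.42, standard error 0.0929, adjusted p = 6.1e-09) and 3.92-fold higher than at 8 h (1.97, adjusted p = 4.2e-10). Of 16556 genes, 256 had a higher log2 fold change at 24 h against untreated and 119 a higher one against 8 h. The call and its direction held without any single library at either time. PECAM1 had the same order of levels as S100A4, at 3.59 ± 0.563 CPM in untreated cells, 1.06 ± 0.201 at 8 h and 8.13 ± 0.928 at 24 h, with the SD over 3 libraries, while CDH5, another endothelial marker, had at most 3 counts.

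S100A3, a gene that is no member but lies within the span of S100A4 on the same strand without sharing exon bases, had the same order of levels. Its mean ± SD over 3 libraries was 24.9 ± 2.94 CPM in untreated cells, 13.5 ± 0.947 at 8 h and 36.2 ± 1.85 at 24 h. On the log2 scale it changed by -0.88 at 8 h, a larger drop than that of S100A4 in size, and 0.54 at 24 h, where the rise of S100A4 was larger (adjusted p = 5.1e-07 and 2.1e-05). MYH9, the myosin heavy chain that S100A4 binds, was higher at both times, at 0.35 (adjusted p = 5.8e-06) and 0.21 (5.5e-04). PPFIBP1, the S100A4-binding scaffold liprin beta 1, was lower at both, at -0.27 (3.9e-05) and -0.49 (7.5e-08).

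S100A13, the copper-binding member (ENSG00000189171, chr1:153618787-153631360), fell at 8 h and did not stay low. It was at 28.9, 22.1 and 23.7 CPM in untreated replicates 1 to 3, at 18.4, 19.8 and 18.8 CPM at 8 h, and at 26.3, 28.7 and 26.8 CPM at 24 h. The 8 h libraries lay below all the others, while the 24 h and untreated libraries overlapped because untreated replicate 1 was slightly above the highest library at 24 h. At 8 h S100A13 fell by 23.6% (log2 -0.39, standard error 0.0826, adjusted p = 0.0011), and from 8 h to 24 h it rose by 0.52 (adjusted p = 5.8e-05). Against untreated cells the 24 h value was 0.13, with a 95% interval from -0.037 to 0.30 and an adjusted p of 0.18, and without untreated replicate 1 it was 0.25 and called (adjusted p = 0.0025). S100A13 shares 536 of its 2216 exon bases (24.2%) on the same strand with the gene ENSG00000271853. Some of its reads could therefore be missing from its count. S100A13 also shares 235 exon bases on the opposite strand with S100A1, but strand was used in counting.

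The proteins that S100A13 helps to release were rare transcripts, and both are named here after their values were seen. FGF1, a growth factor without a secretion signal, averaged 1.22 ± 0.176 CPM in untreated cells, 2.90 ± 0.474 at 8 h and 1.99 ± 0.0925 at 24 h, with the SD over 3 libraries. Its transcripts rose at both times, by 1.24 (adjusted p = 1.8e-05) and 0.69 (0.0033) on the log2 scale. IL1A, the inflammatory cytokine interleukin 1 alpha, went the other way, from 1.01 ± 0.0629 CPM to 0.327 ± 0.142 at 8 h and 0.591 ± 0.156 at 24 h. It fell by 1.60 (adjusted p = 6.1e-04) and by 0.78 (0.029). The call at 24 h was lost in DESeq2 (adjusted p = 0.081) and without untreated replicate 1, untreated replicate 3 or TEPA 24 h replicate 1, with values down to -0.56.

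S100A10 and ANXA2, the parts of the plasminogen-docking complex, fell together at 8 h by small amounts. S100A10 (ENSG00000197747, chr1:151982915-151993859) was at 557, 505 and 527 CPM in untreated replicates 1 to 3, 476, 451 and 481 CPM at 8 h, and 512, 539 and 512 CPM at 24 h. ANXA2 (ENSG00000182718) was at 1669, 1508 and 1547 CPM in untreated cells, 1316, 1356 and 1343 CPM at 8 h, and 1412, 1510 and 1423 CPM at 24 h. For both, the 8 h libraries lay below every other library, and the 24 h libraries overlapped the untreated ones. S100A10 fell by 11.4% at 8 h (log2 fold change -0.17, adjusted p = 0.0027) and was at -0.02 at 24 h, with a 95% interval from -0.11 to 0.066. ANXA2 fell by 15.0% at 8 h (-0.23, adjusted p = 2.7e-04). At 24 h it stood slightly below untreated cells (log2 -0.12, adjusted p = 0.025), and that call failed with upper-quartile factors (0.068), with total counts (0.22), with only the groups compared in the fit (0.062), and without untreated replicate 1 (-0.078), TEPA 24 h replicate 1 or TEPA 24 h replicate 3. Between 24 h and 8 h both were higher, S100A10 by 0.15 (adjusted p = 0.0064) and ANXA2 by 0.11 (0.031), the latter call being lost without TEPA 8 h replicate 1, TEPA 8 h replicate 3 or TEPA 24 h replicate 2.

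Reads from ANXA2 and from its near-identical processed copies can be divided between them or left uncounted, so the level of ANXA2 is uncertain. The counts of those copies do not bound that uncertainty. For the copy ANXA2P2 the changes were -0.23 (8 h, adjusted p = 0.0010) and -0.05 (24 h, 0.38), against -0.23 and -0.12 for ANXA2 itself. The S100A10 to ANXA2 ratio within a library, which does not depend on library scaling, was taken per base of annotated exon. It was 3.82, 3.83 and 3.89 in untreated replicates 1 to 3, 4.14, 3.80 and 4.09 at 8 h, and 4.15, 4.08 and 4.11 at 24 h. Every library at 24 h lay above every untreated one, a difference of 0.097 in mean log2 ratio, or 6.92%. Its p in a two-sided exact permutation test was 0.1, the smallest that 3 against 3 libraries can give (0.3 adjusted over the 3 comparisons), so it cannot pass the threshold. The 8 h libraries overlapped both other groups, with differences of 0.059 against untreated (exact permutation p = 0.4, adjusted 0.5) and 0.038 for 24 h against 8 h (exact permutation p = 0.5, adjusted 0.5). With the canonical transcript as the length, the ratio was 0.779 ± 0.0082, 0.812 ± 0.037 and 0.833 ± 0.0064 in the 3 groups (SD, n = 3), so whether it lies above or below 1 depends on the length given to ANXA2.

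Of 11 genes of the plasminogen system around that complex, 10 were tested, with 4 higher and 4 lower at 8 h, and 1 higher and 7 lower at 24 h. Over all genes tested, 25.2% were higher and 24.5% lower at 8 h, and 25.7% higher and 26.8% lower at 24 h. The median of the 10 lay at -0.02 at 8 h and at -0.51 at 24 h on the log2 scale. Both activators fell at both times, PLAT (tissue plasminogen activator) by 1.14 and 0.42 on the log2 scale and PLAU (urokinase) by 0.25 and 0.76. The urokinase receptor PLAUR was at 0.08 at 8 h (adjusted p = 0.17) and fell by 0.17 at 24 h (0.0043). SERPINE2, an inhibitor of serine proteases, rose by 0.46 at 8 h and was at 0.04 at 24 h (adjusted p = 0.68). The plasminogen receptor PLGRKT fell by 0.38 and 0.46, and AHNAK, the large scaffold that S100A10 and ANXA2 bind together, rose by 0.33 and 0.22. PLG, which encodes plasminogen itself, had 0 counts in every library.

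S100A6 and S100A11, which bind other annexins, both fell at 8 h and parted at 24 h. S100A6, also known as calcyclin (ENSG00000197956, chr1:153534599-153536244), was at 1093, 984 and 984 CPM in untreated replicates 1 to 3, 728, 768 and 730 CPM at 8 h, and 980, 1028 and 1010 CPM at 24 h. S100A11 (ENSG00000163191, chr1:152032506-152047907), a partner of annexin A1, was at 423, 415 and 420 CPM in untreated cells, 354, 355 and 354 CPM at 8 h, and 352, 371 and 342 CPM at 24 h. S100A6 lay below its untreated libraries at 8 h and overlapped them again at 24 h, with replicate 1 at 24 h just under the lowest of them, whereas S100A11 was below its untreated libraries at both times. At 8 h S100A6 fell by 27.3% (log2 -0.46, standard error 0.0439, adjusted p = 5.8e-07). At 24 h it was at -0.02, with a 95% interval from -0.11 to 0.073, and it rose by 0.44 between 8 h and 24 h (adjusted p = 5.6e-07). S100A11 fell by 15.5% at 8 h and by 15.2% at 24 h (log2 fold changes -0.24 and -0.24, adjusted p = 4.0e-05 and 3.9e-05). The difference between its 2 times was 0.0047, with a 95% interval from -0.071 to 0.081.

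Among 12 other annexins, calcium-dependent membrane-binding proteins, 11 were tested, with 7 lower and 0 higher at 8 h and 6 lower and 2 higher at 24 h. The shares over all genes tested were 24.5% lower and 25.2% higher at 8 h, and 26.8% lower and 25.7% higher at 24 h. The median of the 11 lay at -0.30 at 8 h and at -0.23 at 24 h. ANXA11, a partner of S100A6, fell by 0.66 at 8 h (adjusted p = 1.0e-07) and by 0.26 at 24 h (6.9e-04). ANXA1, the partner of S100A11, which was chosen after its values were seen, fell by 0.38 (2.6e-07) and 0.27 (5.2e-06). ANXA4 fell by 0.57 and 0.54, ANXA6 by 0.30 and 0.23, and ANXA5, the phosphatidylserine binder used to stain dying cells, by 0.09 (adjusted p = 0.041) and 0.32 (1.1e-06). ANXA3 went the other way, at 0.10 at 8 h (adjusted p = 0.14) and 0.14 at 24 h, where it was called higher (0.042). The calls of ANXA5 at 8 h and of ANXA3 at 24 h were lost in 7 and 10 of 18 alternatives, those without untreated replicate 1 or 3 among them.

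S100A16, S100A2 and S100A14, members best known from epithelial cells, followed 3 different courses. S100A16 (ENSG00000188643, chr1:153606886-153613145) was at 314, 299 and 318 CPM in untreated replicates 1 to 3, 227, 236 and 241 CPM at 8 h, and 216, 238 and 222 CPM at 24 h. Each treated library lay below each untreated one, and the treated groups overlapped. S100A16 fell by 24.4% at 8 h (log2 -0.40, standard error 0.0422, adjusted p = 1.4e-06), and at 24 h it fell by 27.5% (-0.46, standard error 0.0422, adjusted p = 2.3e-07). The difference between its times was -0.06, with a 95% interval from -0.15 to 0.030 (adjusted p = 0.25).

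S100A2 (ENSG00000196754, chr1:153561108-153567890), a gene often lost in breast tumors, was low in these cells, at 10.6, 11.7 and 11.3 CPM in untreated replicates 1 to 3, 9.02, 10.2 and 9.96 CPM at 8 h, and 11.2, 11.98 and 11.1 CPM at 24 h. The 8 h libraries lay below the others by a narrow margin. S100A2 fell by 0.21 at 8 h on the log2 scale (adjusted p = 0.034), a call lost in DESeq2 (0.051) and in 4 of the 6 fits without a library of the groups compared: those without untreated replicate 2 or 3 and without TEPA 8 h replicate 1 or 3. At 24 h the value was 0.02, with a 95% interval from -0.13 to 0.18, and between 24 h and 8 h it was 0.23 (adjusted p = 0.017), a call lost without TEPA 8 h replicate 1 or TEPA 24 h replicate 2.

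S100A14 (ENSG00000189334, chr1:153614255-153616986) was close to the detection limit, where untreated replicates 1 to 3 gave 10, 5 and 4 reads, the 8 h libraries 10, 12 and 10, and the 24 h libraries 29, 18 and 12. In CPM these were 0.267, 0.109 and 0.101, then 0.250, 0.314 and 0.272, and at 24 h 0.569, 0.417 and 0.334. The 24 h libraries lay above all others, while those at 8 h overlapped untreated replicate 1. S100A14 was called higher at 24 h, by 1.51 on the log2 scale (standard error 0.401, adjusted p = 0.0049), and its value at 8 h was 0.83 with a 95% interval from -0.12 to 1.77 (adjusted p = 0.14). Without untreated replicate 1 the 8 h value was 1.37 and called (adjusted p = 0.039). ERBB2, the receptor HER2 that S100A14 binds, fell by 0.15 at 8 h (adjusted p = 0.017) and by 0.62 at 24 h (5.2e-08), and its call at 8 h was lost without untreated replicate 1 (-0.10) or TEPA 8 h replicate 1 (-0.12).

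The S100 cluster as a stretch of chromosome showed which neighbours moved too. Of 79 genes of the count table that lie between S100A10 and S100A13, 12 were tested, the 8 members among them, and most of the rest were genes of the skin barrier with 0 to a few counts. At 24 h 6 of the 12 were called higher and 2 lower, and at 8 h 1 was called higher and 8 lower. All genes tested gave 25.7% higher and 26.8% lower at 24 h, and 25.2% higher and 24.5% lower at 8 h. The 4 of the 12 that are no members, FLG-AS1, FLG, S100A5 and S100A3, were called higher at 24 h against untreated and against 8 h. Of all genes tested, 25.7% and 26% were called higher in these comparisons. FLG, which encodes the skin protein filaggrin, was at 0.94 at 8 h (adjusted p = 1.2e-04) and 1.74 at 24 h (1.1e-07), and FLG-AS1, on the opposite strand to it, at 0.15 (0.071, but 0.20 and called without untreated replicate 3) and 0.40 (9.4e-05). S100A5, chosen here after its values were seen, lies between S100A6 and S100A4 and was at -0.54 at 8 h (adjusted p = 0.068) and 0.72 at 24 h (0.0080). Its 8 h value was called without TEPA 8 h replicate 1 (-0.74) or TEPA 24 h replicate 3 (-0.54), and its 24 h call was lost without TEPA 24 h replicate 2 (0.57). S100A5, S100A4 and S100A3 thus stood side by side with a value below 0 at 8 h and a call above 0 at 24 h, while S100A6 before them and S100A2 after them were near 0 at 24 h. S100A14, flanked by S100A16 and S100A13, was above 0 at 24 h between a neighbour that was lower and another that was not called.

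**Figure D3:**
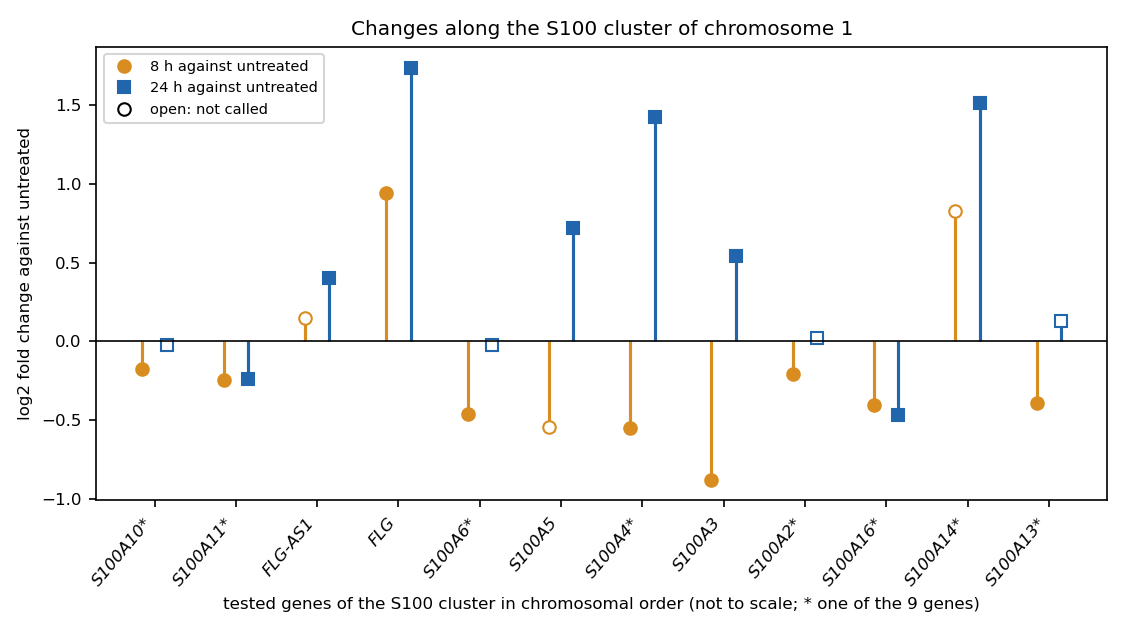
Log2 fold change against untreated cells (vertical axis) of the 12 tested genes of the chromosome 1 cluster in chromosomal order (horizontal axis, not to scale) at 8 h (circles) and 24 h (squares), open where not called. The adjacent genes S100A5, S100A4 and S100A3 lie below 0 at 8 h and at 0.72, 1.42 and 0.54 at 24 h.

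Other S100 genes were mostly silent: of 13 in the list, 3 were tested, and 7 (S100A7, S100A7A, S100A7L2, S100A8, S100A9, S100A12 and S100B) had 0 counts in every library. Of the 3 tested, 1 was called lower at 8 h and 3 were called higher at 24 h, beside 24.5% and 25.7% of all genes. At 24 h 1 of these 3 overlapped its untreated libraries, at 2.43 to 3.22 against 1.38 to 2.64 CPM. Of 19 partners and receptors of S100 proteins, 18 were tested, with 6 higher and 6 lower at 8 h and 6 higher and 8 lower at 24 h. The shares over all genes tested were 25.2% higher and 24.5% lower at 8 h, and 25.7% higher and 26.8% lower at 24 h. The median of the 18 lay at 0.058 at 8 h and at -0.041 at 24 h on the log2 scale. Besides those named above, ALCAM, an adhesion molecule, was higher at 0.21 and 0.26. TLR4, a receptor for released S100A8 and S100A9, was lower at -0.48 and -0.19. MDM2, a ubiquitin ligase, was at 0.09 at 8 h (0.13) and higher at 24 h at 0.31 (7.0e-05). SUGT1, a cochaperone that S100A6 binds, was higher at 0.11 (adjusted p = 0.040) and 0.32 (6.1e-06), the call at 8 h being lost in 10 of 18 alternatives, among them those without untreated replicate 1 or 3 or any library at 8 h.

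Of 23 other EF-hand proteins, each of them tested, 17 were lower and 1 higher at 8 h, and 13 were lower and 4 higher at 24 h. Over all genes tested, 24.5% were lower and 25.2% higher at 8 h, and 26.8% lower and 25.7% higher at 24 h. The median of the 23 lay at -0.20 at 8 h and at -0.15 at 24 h, beside -0.24 and -0.02 for the 9 genes. RCN1, a calcium-binding protein of the endoplasmic reticulum, fell by 0.62 and 0.33, and CHP1, a calcineurin-like cofactor of sodium-proton exchangers, by 0.49 and 0.11. The calpain subunit CAPN2 fell by 0.10 (adjusted p = 0.033) and 0.37 (3.6e-07). EFHD2 fell by 0.36 and 0.84, and its relative EFHD1 by 0.45 and 0.89. PDCD6, an adaptor in membrane repair, was the only one higher at 8 h, at 0.85 (adjusted p = 1.4e-05), and at -0.15 at 24 h (0.31). GCA, or grancalcin, was at -0.03 at 8 h (adjusted p = 0.88) and higher at 24 h at 0.90 (1.1e-04), and RCN2 at 0.02 (0.66) and 0.35 (2.7e-06). The calls of CAPN2 at 8 h and CHP1 at 24 h were lost in 7 and 14 of 18 alternatives, those without untreated replicate 3 or TEPA 24 h replicate 1 among them. EFHD1 lost its 8 h call without untreated replicate 1 (-0.30) or TEPA 8 h replicate 2 (-0.37), and without untreated replicate 1 the 24 h value of PDCD6 was -0.29 and called.

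**Figure D4:**
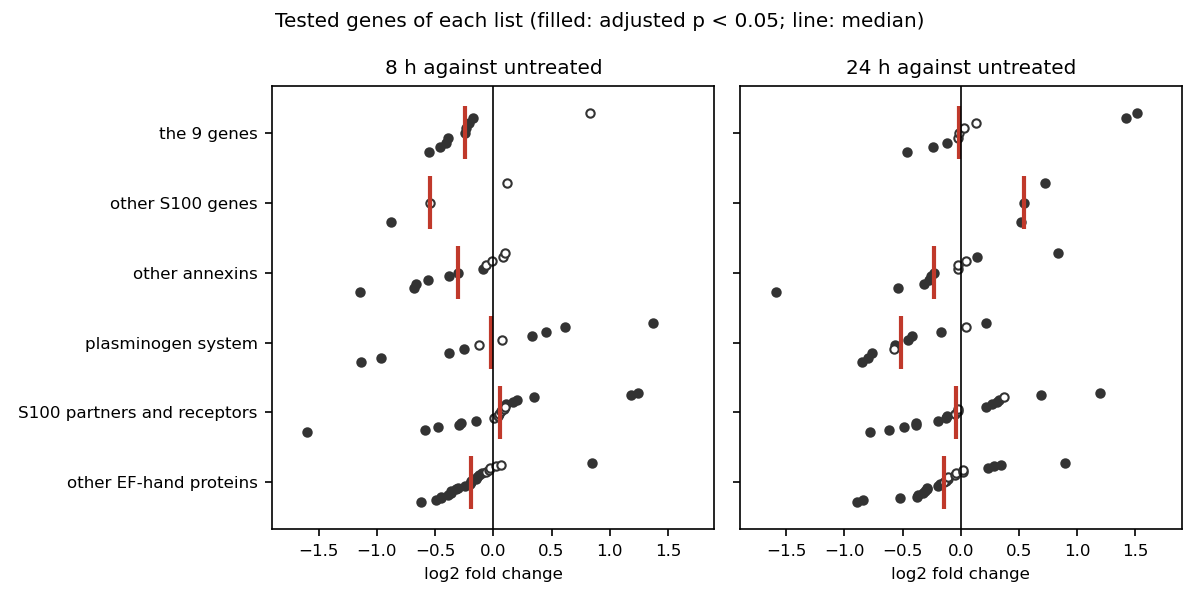
Log2 fold change (horizontal axes) of every tested gene of each list (rows) at 8 h (left) and 24 h (right) against untreated cells, filled where called, with the median of the list as a red line. The 9 genes have their median at -0.24 at 8 h and -0.02 at 24 h, and the plasminogen system at -0.02 and -0.51.

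Levels of the 9 genes were compared with each other per length, as CPM per 1000 bases of the union of annotated exons (RPKM, mean ± SD, n = 3). In untreated cells S100A6 was highest at 1051 ± 64.6 and took place 19 of 14580 tested genes with a length. S100A11 followed at 646 ± 5.94, S100A10 at 523 ± 25.7, S100A16 at 183 ± 5.74 and ANXA2 at 136 ± 7.24, none of which overlapped its neighbour in the order. S100A13 at 11.2 ± 1.60 and S100A4 at 9.96 ± 1.61 overlapped, S100A2 followed at 7.26 ± 0.357, and S100A14 was last at 0.125 ± 0.0729. At 24 h S100A4 had passed S100A13, at 26.6 ± 1.44 against 12.3 ± 0.570, while S100A11 and S100A10 overlapped at 547 ± 22.0 and 515 ± 15.5, as did S100A16 and ANXA2 at 132 ± 6.69 and 125 ± 4.63. Over the length of the canonical transcript instead, ANXA2 was second in untreated cells at 1013 ± 53.9 behind S100A6 at 2351 ± 144, since its union of exons (11574 bases) is far longer than that transcript (1554 bases). On that scale S100A4 stayed below S100A13 at 24 h, at 48.97 ± 2.66 against 57.2 ± 2.65.

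For the 4 members whose group means ranged the most, the genes with the most similar course were sought among 11920 genes with a mean of at least 100 counts. The measure was the Euclidean distance over the 9 libraries of log2 CPM, each gene centred on its own mean. Nearest to S100A4 were PDGFRB, a receptor of platelet-derived growth factor, at a distance of 0.431, and BMF, a pro-apoptotic BCL2 relative, at 0.453. At 8 h PDGFRB stood at -0.33 and BMF at -0.51 against untreated cells, and at 24 h they stood at 1.47 and 1.19. S100A13 had neighbours at smaller distances, CCNDBP1 at 0.113 and ERRFI1, a feedback inhibitor of the EGF receptor, at 0.127. This distance grows with the size of a gene's own changes, so it does not rank likeness between members. The range of group mean log2 CPM was 1.97 for S100A4 and 0.52 for S100A13. S100A16 was nearest to TBL1X, a subunit of nuclear corepressor complexes, at 0.0904, and to HSPA5, the chaperone BiP of the endoplasmic reticulum, at 0.111. For the low-count S100A14 the nearest were AC016394.2 at 0.777 and THAP9 at 0.779. Counting noise in S100A14 adds to these distances, so their size cannot tell whether any gene followed it closely.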

How the data were processed

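RNA-Seq counts of 9 libraries in 3 groups of 3 were used. The authors aligned paired-end reads with HISAT2 to hg38 and deposited raw counts per gene name, taken over exons with featureCounts and strand used, without normalization. No column was left out. The filter filterByExpr (minimum count 10) of edgeR 4.0.16, in R 4.3.3, left 16556 of 59453 genes, which were scaled by TMM (factors 0.978 to 1.039), and fitted over all 9 libraries with a quasi-likelihood model (biological coefficient of variation 0.0481). Adjusted p-values are Benjamini-Hochberg values over those 16556 genes. A standard error is the absolute log2 fold change divided by the root of the F statistic, and 95% intervals use them. Intervals cover the spread between libraries only.

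The 9 genes and the lists were chosen with earlier results of these data known. Named besides the 9 genes were, in each list, the 2 called genes with the highest and the 2 with the lowest log2 fold change at each time, with a mean of at least 100 counts, and the nearest genes by distance. Others are said to be chosen after their values were seen. A few genes named by the rule are not reported here. Positions and lengths are from GENCODE release 44 on hg38, while the authors used Ensembl 103, and promoter windows are from RefSeq. On simulated counts of 15977 genes for 8 h against untreated, 94 of 99 genes changed by 0.5 (94.9%) and 101 of 101 changed by 1 on the log2 scale were recovered. The simulation gave all genes the same spread and changed only genes above 1 CPM in untreated cells. It thus does not cover S100A14, nor changes smaller than 0.5, as most of those of the members at 8 h were. Alternatives were other scalings, filters, fold limits and tools (DESeq2 1.42.0), 2 groups only, a replicate block, and leaving out each library. Unadjusted p-values and the length of the canonical transcript were added after the data were seen. Protein sequences and other cell lines were not analysed here.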

Additional observations from a re-analysis of the deposited data

Results flagged for a closer look

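Levels under TEPA differed between its 2 times for 6 of the 9 genes. They were judged by the comparison of the 24 h with the 8 h libraries at an adjusted p under 0.05 (edgeR's quasi-likelihood test). In it, 26% of all genes tested were higher and 28.8% lower. Since both times were set against the same untreated libraries, this comparison equals the difference between their log2 fold changes. It does not separate time in TEPA from time in culture. Given as log2 differences of 24 h over 8 h, the members were S100A4 (1.97), S100A13 (0.52), S100A6 (0.44), S100A2 (0.23), S100A10 (0.15) and ANXA2 (0.11), each higher at the later time. Neighbours on chromosome 1 were higher at 24 h as well, S100A3 (1.42), S100A5 (1.26), FLG (0.79) and FLG-AS1 (0.25). Of the annexins named and the ANXA2 copy, ANXA11 (0.41), ANXA2P2 (0.18) and ANXA1 (0.11) were higher and ANXA5 (-0.23) lower. In the plasminogen system PLAT (0.71) was higher, and PLAU (-0.51), SERPINE2 (-0.42) and PLAUR (-0.25) were lower. Of the S100 partners and receptors, TLR4 (0.28), SUGT1 (0.22) and MDM2 (0.22) were higher and FGF1 (-0.55), ERBB2 (-0.47), PPFIBP1 (-0.21) and MYH9 (-0.14) lower. Of the other EF-hand genes, GCA (0.93), CHP1 (0.38), RCN2 (0.32) and RCN1 (0.29) were higher and PDCD6 (-0.997), EFHD2 (-0.48), EFHD1 (-0.44) and CAPN2 (-0.27) lower. The 8 genes nearest in course to a member were picked on these same libraries, so their direction follows from the choice. Of them, 6 were higher at 24 h than at 8 h, PDGFRB (1.80), BMF (1.70), AC016394.2 (0.43), THAP9 (0.70), CCNDBP1 (0.54) and ERRFI1 (0.59). Among markers of other cell types, PECAM1 (2.94) was higher and COL1A1 (-0.84) lower.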

How the results depend on the processing

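The 27 log2 fold changes of the 9 genes were recomputed under 483 alternatives in all: 454 kept direction and side of the threshold, 17 lost a call, 2 gained a call and 10 changed sign, each of the latter for a value not called. For the other genes named, 88 values under 1582 alternatives gave 1503, 65, 8 and 6. With a log2 fold change beyond 0.5, the members called were 1 lower at 8 h, 0 lower at 24 h and 2 higher between the times. With 10 counts required in every library, which drops S100A14, 1 was higher at 24 h. Leaving out 1 library gave 0 to 1 higher and 7 to 8 lower at 8 h, 2 to 3 higher and 2 to 3 lower at 24 h, and 4 to 6 higher between the times. Values near 0 changed sign under another scaling: at 24 h S100A6 (0.0060 with upper-quartile factors, 0.039 with total counts), S100A10 (0.0028 and 0.036) and, with total counts, ANXA2P2 (0.0060), and between the times S100A16 (0.012 with total counts). Leaving out 1 library also carried across 0, at 24 h, S100A2 (-0.014 to 0.057), S100A6 (-0.048 to 0.030), S100A10 (-0.058 to 0.012), ANXA2P2 (-0.087 to 0.0091) and SERPINE2 (-0.050 to 0.12). Each crossed 0 when untreated replicate 1 was left out, and S100A2 did so in 2 such fits in all. At 8 h leaving out 1 library did so for GCA (-0.15 to 0.19) and RCN2 (-0.0071 to 0.039), and between the times for S100A11 (-0.025 to 0.031) and the log2 ratio of S100A10 to ANXA2 (-4.3e-05 to 0.061, the lowest without TEPA 8 h replicate 2). The cause was not tested. Total counts in place of TMM moved the median of all genes by up to 0.072 and the split of calls at 24 h from 4253 higher and 4435 lower to 5204 and 3557, and between the times from 4309 and 4770 to 5504 and 3724.

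With the replicate number as a block, 7779, 8355 and 8758 genes were called at 8 h, at 24 h and between the times, against 8216, 8688 and 9079 without it. Members called were 0 higher and 8 lower, 2 higher and 3 lower, and 5 higher and 0 lower, with ANXA2 lost between the times (adjusted p = 0.053). Of the other genes named, ANXA5, CAPN2 and SUGT1 at 8 h and ANXA3 and CHP1 at 24 h also lost a call. Deviations of same-numbered libraries correlated at -0.080 to 0.038, so no spread shared by replicate number was seen. That does not show whether the replicates were paired by design. Depth limits S100A14, at 4 to 29 counts.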
